A study of Mus musculus with 27 samples.

Results

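Messenger RNA of 9 genes that make, remodel or import the phospholipids of liver cells was compared between livers lacking HDAC3, SCAP or both and GFP control livers. The genes are Chka, Chkb, Pcyt1a, Etnk1, Etnk2, Pcyt2, Pemt, Lpcat3 and Mfsd2a. They were chosen by name for their place in phospholipid metabolism, with earlier results of these data known. For each gene 1 transcript was taken, the one that the authors marked as best. These genes make up 9 of the 22869 genes in the RNA table, and all 9 passed the filter on low counts, as did 12009 genes in all.

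The livers came from C57Bl/6 mice on an ad lib diet, taken 10 days after injection of adeno-associated virus serotype 8 (AAV8), a vector that carries genes mainly into hepatocytes. Floxed mice were given AAV8:Cre to delete the floxed gene, and floxed mice given AAV8:GFP served as controls. Livers are called lacking a gene here by this design, and part of its transcript remained in the bulk tissue, at levels given below. The HDAC3 LKO group held 4 livers of HDAC3 floxed mice given Cre, SCAP LKO held 4 livers of SCAP floxed mice given Cre, and Double LKO held 3 livers of HDAC3/SCAP floxed mice given Cre. The 6 GFP controls were 2 livers from each of the 3 floxed lines. Every mouse received a virus, and no mouse received Cre without a floxed gene, so an effect of Cre cannot be told apart from gene loss in a comparison with GFP. HDAC3 removes acetyl groups from histones as part of nuclear corepressor complexes with NCoR or SMRT. SCAP carries SREBP transcription factors from the endoplasmic reticulum to the Golgi, where they are cut to their active form. Samples are numbered as replicates in the labels, with no statement that they are separate mice, and p-values therefore cover the spread between samples only.

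Phosphatidylcholine is made in liver by a pair of routes. In the CDP-choline route, choline is phosphorylated by choline kinase (Chka and Chkb encode its forms), joined to CTP by the cytidylyl transferase of Pcyt1a in what is usually the limiting step, and transferred to diacylglycerol. Phosphatidylethanolamine is made by a matching route through the ethanolamine kinases (Etnk1, Etnk2) and the cytidylyl transferase of Pcyt2, and in hepatocytes Pemt encodes the methyltransferase that turns it into phosphatidylcholine. Lpcat3 encodes the acyltransferase that puts polyunsaturated fatty acids back into lysophospholipids, and Mfsd2a encodes a membrane transporter that takes up lysophosphatidylcholine carrying long polyunsaturated fatty acids such as docosahexaenoic acid. SREBPs control many genes of sterol and fatty acid synthesis, and SCAP is needed for that control.

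Promoter windows of 8 of the 9 genes, all but Pcyt2, from 250 bases before to 50 bases after the annotated start, were read from RefSeq on GRCm38.p6. There were 11 such windows because Pcyt1a had 3 and Pemt had 2. A window each of Lpcat3 and Mfsd2a is shown because both transcripts fell with SCAP loss, and 1 of Pcyt1a because, of the 8 genes searched, it was the one that held the sterol regulatory element. Pcyt2 was not searched. Capitals mark the matches to the motifs described after the sequences, and each sequence runs 5′ to 3′ along the gene's strand.
Pcyt1a, chr16:32430671-32430970, plus strand: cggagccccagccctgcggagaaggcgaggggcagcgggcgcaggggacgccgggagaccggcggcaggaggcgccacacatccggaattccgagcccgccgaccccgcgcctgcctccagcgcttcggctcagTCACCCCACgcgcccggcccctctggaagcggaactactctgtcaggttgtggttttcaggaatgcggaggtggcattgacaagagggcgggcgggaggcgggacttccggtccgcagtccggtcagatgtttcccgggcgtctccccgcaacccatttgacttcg
Lpcat3, chr6:124662854-124663153, plus strand: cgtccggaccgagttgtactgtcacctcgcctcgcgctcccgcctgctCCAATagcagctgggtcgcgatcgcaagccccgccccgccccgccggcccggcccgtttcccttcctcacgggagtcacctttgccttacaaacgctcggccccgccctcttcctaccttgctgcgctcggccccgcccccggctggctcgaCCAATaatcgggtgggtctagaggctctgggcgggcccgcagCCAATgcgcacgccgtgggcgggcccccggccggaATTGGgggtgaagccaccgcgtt
Mfsd2a, chr4:122961139-122961438, minus strand: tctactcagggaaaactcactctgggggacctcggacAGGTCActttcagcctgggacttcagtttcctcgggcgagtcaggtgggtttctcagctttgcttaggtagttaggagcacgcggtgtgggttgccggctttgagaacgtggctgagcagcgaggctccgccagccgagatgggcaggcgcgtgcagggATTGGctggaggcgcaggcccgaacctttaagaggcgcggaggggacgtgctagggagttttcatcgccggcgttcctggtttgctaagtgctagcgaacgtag

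Each motif was searched on both strands, and no pair of these motifs overlapped in the windows shown. The sterol regulatory element was written as TCACNCCAC, a form of the SREBP binding sequence, and was present in 408 of the 32851 windows in the table (1.24%). Among the 8 genes searched it was in Pcyt1a alone, where TCACCCCAC began 116 bases before the start. A second, overlapping Pcyt1a window held the same match. The E-box CACGTG, which SREBP1 can also bind, was in 7.15% of all windows and in none of the 11. The CCAAT box, bound by NF-Y, was in 37.4% of all windows and in those of Chka, Chkb, Pemt, Lpcat3 and Mfsd2a. The Lpcat3 window held 4 CCAAT matches, at 202, 50 and 8 bases before the start and at base 28 after it. The element AGGTCA, bound by nuclear receptors that recruit NCoR among other factors, was in 16.3% of all windows. It was present in Mfsd2a, 213 bases before the start, and in the third Pcyt1a window. These matches describe letters in short windows and say nothing of binding in these livers.

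Total counts over genes were 4747602 to 19316642 per control library. The HDAC3 LKO range was 5158695 to 8672408 and the SCAP LKO range 3546597 to 7788828. Double LKO libraries 2, 3 and 4, as the table numbers them, had 3736618, 9761092 and 20622671. Hdac3 lay at 34.3 to 40.7 CPM (reads relative to library size, with TMM scaling) in controls and at 7.46 to 12.4 in the 7 livers labelled as lacking it. Scap lay at 91.2 to 138.5 CPM in controls and at 43.9 to 59.03 in the 7 livers labelled as lacking it. On the second principal component Double LKO library 2 lay farthest out (-45.8), followed by SCAP LKO replicate 4 (-25.7). The summed level of 6 hepatocyte markers (Alb, Apoa1, Ttr, Cps1, Serpina1a and Apob) was 77650 CPM in Double LKO library 2 and 113770 to 147380 in the other livers, and none of the 6 passed the test in any comparison. None of the tested macrophage, stellate or cholangiocyte markers passed either. The cholangiocyte markers (Krt19, Krt7, Epcam, Sox9 and Spp1) summed to 154 CPM in SCAP LKO replicate 4, to 79.1 in Double LKO library 2 and to between 23.97 and 66.7 in the other livers. The exceptions among markers, named after their values were seen, were the erythroid Alas2, lower in HDAC3 LKO and Double LKO than in controls and in Double LKO than in SCAP LKO, and the endothelial Lyve1, lower in Double LKO than in HDAC3 LKO. The other 2 of the 3 tested erythroid markers did not pass. In HDAC3 LKO Alas2 differed from controls by -1.35 in log2, while the median of the 3 was 0.36, so the other 2 did not fall with it. That median was -0.34 in Double LKO against controls and -0.49 against SCAP LKO. Lymphocyte and neutrophil markers summed to at most 4.47 CPM in any liver, and no marker in the table was at 0 in every library. In bulk tissue, fewer cells of a type and less RNA per cell cannot be told apart.

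In HDAC3 LKO livers, transcripts of the CDP-choline route (Chka, Chkb and Pcyt1a) and of Lpcat3 rose, and none of the 9 genes fell. This is 4 of 9 genes, beside 13.9% of all 12009 tested genes called in that comparison (quasi-likelihood F-test in edgeR, called where the Benjamini-Hochberg adjusted p was under 0.05). In SCAP LKO livers Pcyt2, Lpcat3 and Mfsd2a fell and none rose, 3 of 9 genes beside 1.19% of all genes. In Double LKO livers Chka and Chkb rose and Pcyt2 and Mfsd2a fell, 4 of 9 genes beside 13.9% of all genes. The median log2 fold change of the 9 genes was 0.29 where HDAC3 was lost, -0.24 where SCAP was lost and 0.06 where both were lost, and the medians over all tested genes were -0.02, 0.01 and -0.01. These 3 comparisons share the 6 controls. Because the 9 genes were chosen with earlier results of these data known, their shares are given as description only. Etnk1, Etnk2 and Pemt passed the test in no comparison.

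**Figure D1:**
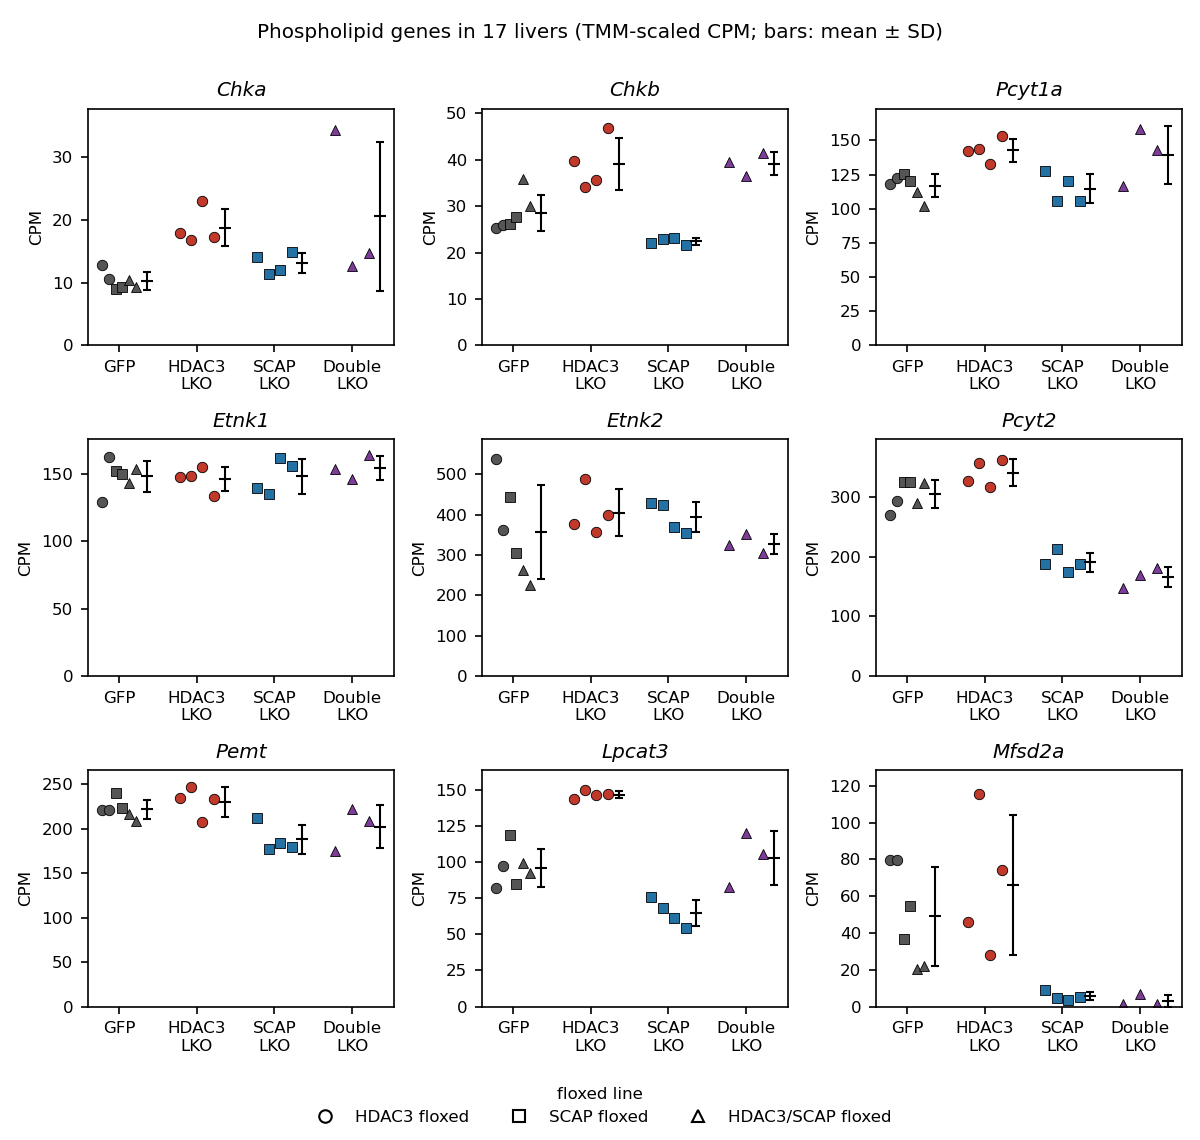
Level of each of the 9 genes in 17 livers, as TMM-scaled CPM on linear axes that start at 0, by group. Each point is a library, its shape gives the floxed line, and the bars give the group mean ± SD. Mfsd2a lay at 9.20 CPM or below in every SCAP LKO and Double LKO liver and at 20.3 or above in every other liver, and Lpcat3 lay between 144 and 149.6 in the HDAC3 LKO livers and at 120.1 or below elsewhere.

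Chka, which encodes choline kinase alpha, was low in all livers. It was at 12.8 and 10.6 CPM in the HDAC3 floxed controls, 8.94 and 9.28 in the SCAP floxed controls and 10.4 and 9.33 in the HDAC3/SCAP floxed controls. The HDAC3 LKO livers held 18.0, 16.8, 23.0 and 17.3 CPM. All 4 lay above the highest control, and the mean was 1.84-fold that of the controls. The log2 fold change was 0.84 (SE 0.21, edgeR adjusted p = 0.0118). Against the 2 controls of the HDAC3 floxed line alone it was 0.66 and did not pass (edgeR adjusted p = 0.17). With a block for replicate number it was 0.60 and did not pass either (edgeR adjusted p = 0.0679).

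With SCAP loss the levels of Chka were 14.0, 11.4, 12.1 and 14.9 CPM, and 2 of them lay above the highest control. Their log2 difference of 0.34 did not pass (SE 0.22, edgeR adjusted p = 0.652). Double LKO livers held 34.3, 12.7 and 14.7 CPM, and library 2 carried the highest value of all 17. The log2 fold change was 0.90 (SE 0.23, edgeR adjusted p = 0.0111). Without library 2, the one that stood apart and had the low hepatocyte marker sum, it was 0.40 and did not pass (edgeR adjusted p = 0.084). Against the HDAC3/SCAP floxed controls alone it was 0.98 and also missed the threshold (edgeR adjusted p = 0.0881). Chka rested on 42 to 291 reads per library, and a second transcript of the gene had 36.4% as many counts as the one used.

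Chkb encodes choline kinase beta, the other form of the enzyme. Controls held 25.3 and 26.01 CPM in the HDAC3 floxed line, 26.2 and 27.7 in the SCAP floxed line and 35.7 and 29.9 in the HDAC3/SCAP floxed line. Upon HDAC3 loss the levels were 39.6, 34.1, 35.7 and 46.8 CPM. Of these, 2 lay above the highest control and the other two above all controls but that one, and the log2 fold change was 0.46 (SE 0.10, edgeR adjusted p = 0.00503).

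SCAP LKO livers held 22.03, 22.9, 23.1 and 21.5 CPM of Chkb, all below the lowest control. The log2 difference of -0.34 did not pass over all genes (SE 0.11, edgeR adjusted p = 0.185). Double LKO livers held 39.6, 36.4 and 41.4 CPM, all above the highest control, with a log2 fold change of 0.47 (SE 0.11, edgeR adjusted p = 0.00678). Set against the HDAC3/SCAP floxed controls alone, which were the highest of the controls, that difference was 0.25 and did not pass (edgeR adjusted p = 0.291). Annotated long noncoding genes overlap Chkb, and the sources used here do not say whether reads were counted by strand, so its counts may include theirs.

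Pcyt1a, the cytidylyl transferase of the CDP-choline route, varied little. Controls held 118 and 122 CPM in the HDAC3 floxed line, 125 and 121 in the SCAP floxed line and 112 and 102 in the HDAC3/SCAP floxed line. The HDAC3 LKO values were 142, 144, 133 and 153 CPM, all above the highest control. The rise was 0.29 on the log2 scale (SE 0.09, edgeR adjusted p = 0.0353), which is a mean 1.22-fold that of the controls. The call did not hold against the HDAC3 floxed controls alone (0.25, edgeR adjusted p = 0.237), nor without the low-count filter (adjusted p = 0.0784). It was also lost without 1 of the SCAP floxed controls, either HDAC3/SCAP floxed control or HDAC3 LKO replicate 1, 2 or 4 (adjusted p from 0.0519 to 0.122).

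In SCAP LKO livers Pcyt1a was at 127, 106, 120.5 and 106 CPM, among the controls, with a log2 difference of -0.02 (SE 0.09, edgeR adjusted p = 0.971). Double LKO livers held 117, 158.5 and 143 CPM. Library 2 lay among the controls and the other two above them, and the log2 difference of 0.26 did not pass (SE 0.10, edgeR adjusted p = 0.0887). Without library 2 it was 0.37 and passed (edgeR adjusted p = 0.0122), as it did with voom (0.31, adjusted p = 0.0116). Without library 3 it was 0.16 and did not pass (edgeR adjusted p = 0.38). Nor did it pass against the HDAC3/SCAP floxed controls alone (0.38, edgeR adjusted p = 0.0946).

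The ethanolamine kinases did not pass in any comparison. Etnk1 had 129 to 163 CPM in controls (median 151). The ranges were 134 to 156 with HDAC3 loss, 135 to 162 with SCAP loss and 146 to 164 with loss of both. All groups overlapped, with log2 differences from controls of -0.02, 0.00 and 0.06 (SE 0.08 in the single knockouts and 0.09 in the Double LKO).

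Etnk2, the ethanolamine kinase known to be abundant in liver, spread widely among the controls. It was at 538 and 362 CPM in the HDAC3 floxed controls, 445 and 306 in the SCAP floxed controls and 264 and 227 in the HDAC3/SCAP floxed controls. It was at 376, 488, 357 and 399 CPM in HDAC3 LKO livers. SCAP LKO livers held 428, 424, 369 and 355 CPM, and Double LKO livers 324, 353 and 305. Every knockout group lay within the range of the controls. The log2 differences were 0.18, 0.14 and -0.13 (SE 0.18, 0.18 and 0.20). Against own-line controls they were -0.15, 0.07 and 0.42, so the sign of the HDAC3 LKO and Double LKO differences turned with the choice of control, and none of them passed.

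Pcyt2 encodes the cytidylyl transferase of the CDP-ethanolamine route and was low in every liver lacking SCAP. Controls held 269.8 and 293 CPM in the HDAC3 floxed line, 325 and 326 in the SCAP floxed line and 290.2 and 323 in the HDAC3/SCAP floxed line. SCAP LKO livers held 187, 212, 175 and 188 CPM, and Double LKO livers 148, 169 and 180.3. All 7 livers lacking SCAP lay below all 6 controls and all 4 HDAC3 LKO livers.

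The log2 fold change of Pcyt2 was -0.68 with SCAP loss (SE 0.09, edgeR adjusted p = 0.000103) and -0.87 with loss of both (SE 0.10, edgeR adjusted p = 7.34e-06). The mean was 1.60-fold lower in SCAP LKO and 1.84-fold lower in Double LKO livers than in controls. With HDAC3 loss alone Pcyt2 was at 327, 358, 316 and 362 CPM, 3 of 4 livers above the highest control. Their log2 difference of 0.16 did not pass (SE 0.09, edgeR adjusted p = 0.24).

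Pemt, the methyltransferase that links the ethanolamine and choline routes, was at 221 and 221 CPM in the HDAC3 floxed controls, 240.4 and 223 in the SCAP floxed controls and 217 and 208 in the HDAC3/SCAP floxed controls. SCAP LKO livers held 212, 177, 184 and 179 CPM. Of these, 3 lay below the lowest control, and the log2 difference of -0.24 did not pass over all genes (unadjusted p = 0.0119, edgeR adjusted p = 0.271). Levels were 234, 247, 207 and 233 CPM in HDAC3 LKO livers and Double LKO livers held 175, 222 and 209, with log2 differences of 0.06 and -0.13 that did not pass.

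Lpcat3, the remodelling acyltransferase and a known target of liver X receptors, moved in opposite directions in the single knockouts. Controls held 82.3 and 97.3 CPM in the HDAC3 floxed line, 119 and 85.1 in the SCAP floxed line and 99.4 and 92.2 in the HDAC3/SCAP floxed line. With HDAC3 loss the levels were 144, 149.6, 146 and 147 CPM, close to each other and all above the highest control. With SCAP loss they were 75.5, 68.3, 61.5 and 54.1 CPM, all below the lowest control.

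Upon HDAC3 loss Lpcat3 rose by 0.62 in log2 (SE 0.11, edgeR adjusted p = 0.000947), to 1.53-fold the control mean. Upon SCAP loss it fell by 0.57 (SE 0.12, edgeR adjusted p = 0.0136), to a mean 1.48-fold lower. That fall of Lpcat3 missed the threshold with own-line controls (-0.66, edgeR adjusted p = 0.0705). On the libraries whose numbers match the titles it was -0.48 (adjusted p = 0.0578), and -0.40 with a block for replicate number (adjusted p = 0.197). The fall also missed the threshold without SCAP LKO replicate 3 (0.0684) and without replicate 4 (0.0772). Replicate 4 had the lowest Lpcat3 level of all 17 livers and the highest sum of cholangiocyte markers, 154 CPM, and without it the difference was -0.49. The part of these markers in the Lpcat3 difference was not tested. Double LKO livers held 83.0, 120.1 and 105 CPM, which overlapped the controls, with a log2 difference of 0.11 (SE 0.12, edgeR adjusted p = 0.633).

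The gene Emg1 overlaps Lpcat3 in the RefSeq annotation. Its own log2 differences in these comparisons were 0.13, 0.03 and 0.22, and none passed (edgeR adjusted p = 0.314, 0.943 and 0.114). Whether any of its reads are counted with Lpcat3 cannot be told from the table.

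Mfsd2a, the lysophosphatidylcholine transporter, had the largest log2 changes of the 9 genes in both groups lacking SCAP. Controls held 79.9 and 79.8 CPM in the HDAC3 floxed line, 36.8 and 54.8 in the SCAP floxed line and 20.3 and 22.2 in the HDAC3/SCAP floxed line. SCAP LKO livers held 9.20, 4.62, 3.85 and 5.47 CPM, from 17 to 43 reads, and Double LKO livers 1.61, 6.97 and 1.21, from 7 to 62 reads. All 7 lay below the lowest control. The control mean was 8.46 times that of SCAP LKO and 14.99 times that of Double LKO livers.

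The log2 fold change of Mfsd2a was -3.16 with SCAP loss (SE 0.55, edgeR adjusted p = 0.00287) and -4.01 with loss of both (SE 0.65, edgeR adjusted p = 0.000298). Against the controls of their own lines the log2 changes were -3.04 and -2.78 (edgeR adjusted p = 0.00457 and 0.0119). The Double LKO change was -5.24 without library 3 and -3.35 without library 4, and it passed in each case. The HDAC3 LKO livers were at 45.8, 115, 28.2 and 74.5 CPM, spread over the range of the controls and past it. Their log2 difference of 0.41 did not pass (SE 0.41, edgeR adjusted p = 0.571). It was -0.02 without HDAC3 LKO replicate 2 and -0.27 against the HDAC3 floxed controls alone.

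**Figure D2:**
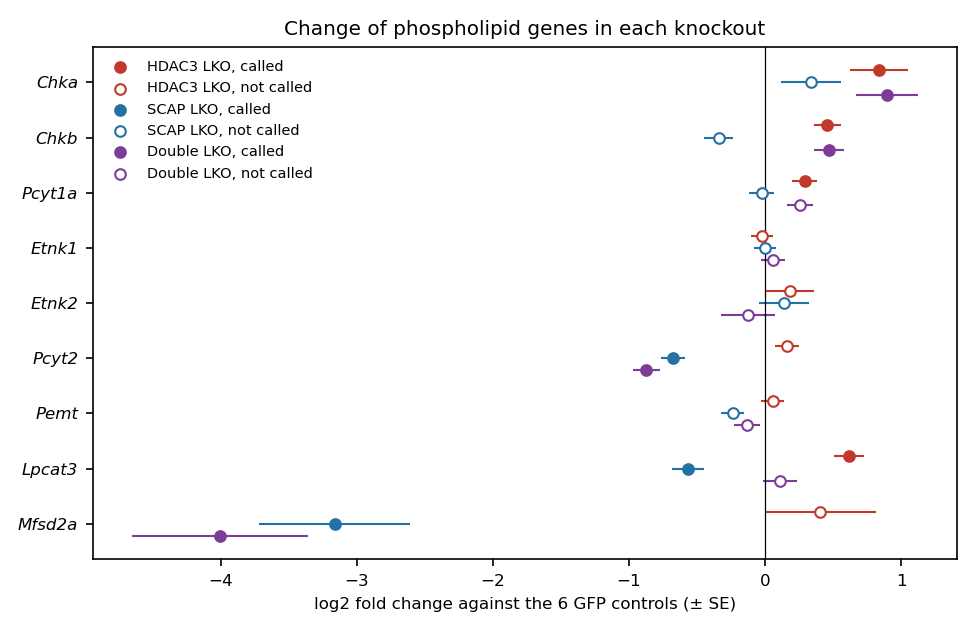
Log2 fold change of each gene against the 6 GFP controls in HDAC3 LKO, SCAP LKO and Double LKO livers, with bars of 1 SE either side. Filled points passed at an adjusted p under 0.05. Chka, Chkb, Pcyt1a and Lpcat3 are filled to the right in HDAC3 LKO, and Mfsd2a lies farthest to the left, at -3.16 in SCAP LKO and -4.01 in Double LKO.

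The floxed lines of the controls gave their lowest p-values for Etnk2 and Mfsd2a. For both genes the HDAC3 floxed controls had the highest mean and the HDAC3/SCAP floxed controls the lowest. For Mfsd2a the values of the 3 lines did not overlap, and the 2 livers lay close together in the HDAC3 floxed and HDAC3/SCAP floxed lines and farther apart in the SCAP floxed line (36.8 and 54.8 CPM). An edgeR F-test over the 3 lines gave unadjusted p = 0.00838 for Mfsd2a, 0.00213 for Etnk2 and 0.047 for Chkb, with adjusted p of 0.498, 0.353 and 0.746. None of the 9 genes was called, beside 0.142% of all genes (17 of 12009), and 797 genes had an unadjusted p under 0.05. DESeq2 called Etnk2 (adjusted p = 0.0422), and the same edgeR test without the low-count filter called Mfsd2a (adjusted p = 0.0182). With 2 livers a line, line and any other difference between those mice cannot be told apart.

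**Figure D3:**
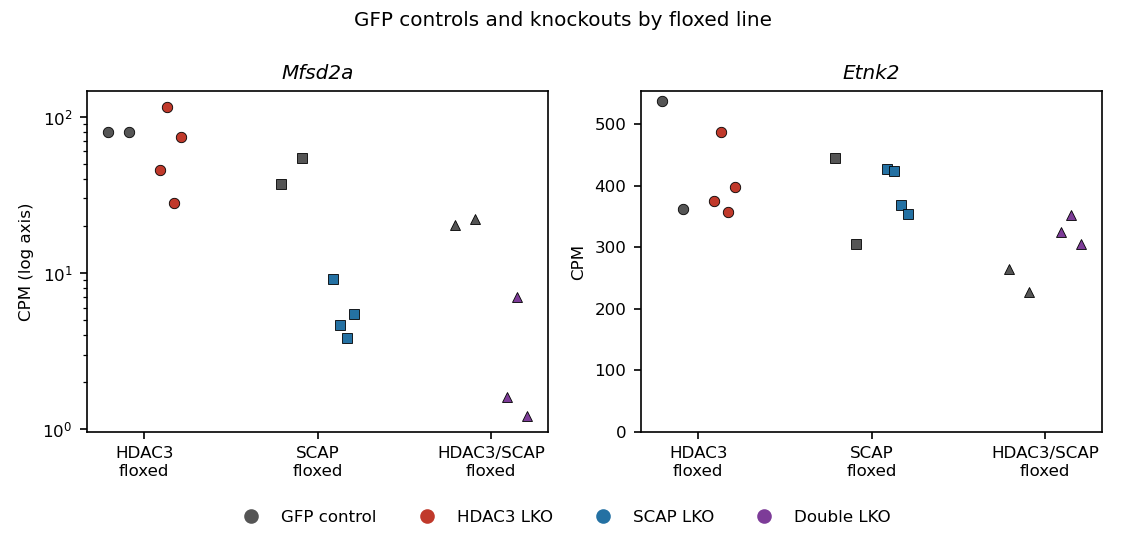
Mfsd2a (log axis) and Etnk2 (linear axis from 0) in GFP control and Cre livers, set out by floxed line as TMM-scaled CPM, with 1 point per library. The Mfsd2a controls step down from 79.9 and 79.8 CPM in the HDAC3 floxed line to 20.3 and 22.2 in the HDAC3/SCAP floxed line, and the SCAP LKO and Double LKO livers lie below the controls of their own line.

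Loss of SCAP was compared in livers with and without HDAC3. Where HDAC3 was also lost (Double LKO against HDAC3 LKO, both given Cre), the log2 fold change was -1.04 for Pcyt2 (SE 0.11, edgeR adjusted p = 3.68e-06) and -4.42 for Mfsd2a (SE 0.67, edgeR adjusted p = 0.000454). Both fell, 2 of 9 genes beside 1.31% of all genes called. The means were 2.05-fold lower for Pcyt2 and 20.2-fold lower for Mfsd2a. These groups differ in floxed line as well as in SCAP, and the line and SCAP loss cannot be told apart in this comparison. The GFP controls of the HDAC3 floxed and HDAC3/SCAP floxed lines had mean Mfsd2a levels of 79.8 and 21.2 CPM, and mean Pcyt2 levels of 281 and 307 CPM. The Mfsd2a change was -5.65 without Double LKO library 3 and -3.75 without library 4. Lpcat3 was lower in all 3 Double LKO livers than in all 4 HDAC3 LKO livers, but the log2 difference of -0.51 did not pass (SE 0.13, edgeR adjusted p = 0.077). It passed with DESeq2 (-0.50, adjusted p = 0.0221), with voom (-0.45, adjusted p = 0.0229) and without Double LKO library 3 (-0.62, adjusted p = 0.0358). Without Double LKO library 2, which had the lowest Lpcat3 level of that group, it was -0.38 and did not pass (edgeR adjusted p = 0.251). Etnk2 was also lower in all 3 Double LKO livers, with a log2 difference of -0.31 (SE 0.22, adjusted p = 0.661), and its control means were 450.3 CPM in the HDAC3 floxed line and 246 in the HDAC3/SCAP floxed line.

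Loss of HDAC3 was compared in the same way where SCAP was also lost (Double LKO against SCAP LKO, both given Cre). Chkb rose by 0.81 (SE 0.12, edgeR adjusted p = 0.000365) and Lpcat3 by 0.68 (SE 0.13, adjusted p = 0.00329), 2 of 9 genes beside 7.99% of all genes. All 3 Double LKO livers lay above all 4 SCAP LKO livers for both genes, and the means were 1.75-fold and 1.59-fold higher. The floxed line differs here too, and the GFP controls of the SCAP floxed and HDAC3/SCAP floxed lines had means of 26.9 and 32.8 CPM for Chkb and 102 and 95.8 CPM for Lpcat3. Chka and Pcyt1a gave log2 differences of 0.56 and 0.28 that did not pass (SE 0.25 and 0.11, edgeR adjusted p = 0.191 and 0.117). For Pcyt1a the difference was 0.39 and passed without Double LKO library 2 (adjusted p = 0.018), as it did with voom (adjusted p = 0.0184). Without Double LKO library 3 the Pcyt1a difference was 0.19 and did not pass (edgeR adjusted p = 0.394). Mfsd2a differed by -0.85 and Pcyt2 by -0.20, and neither passed (SE 0.79 and 0.11, adjusted p = 0.6 and 0.282).

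**Figure D4:**
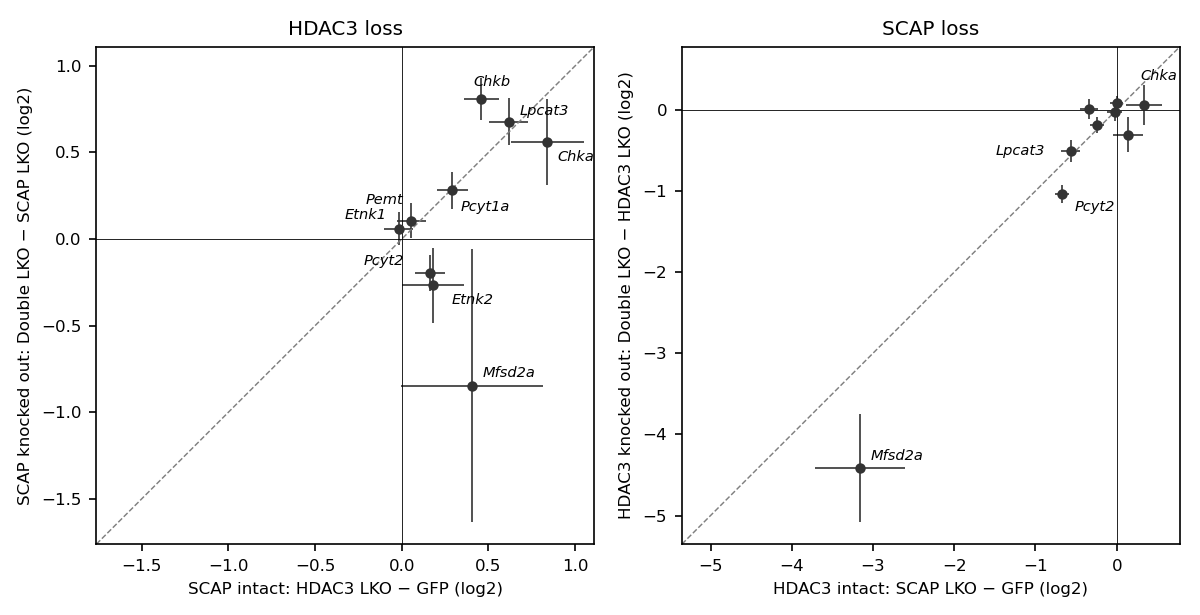
Log2 difference of each gene upon HDAC3 loss (left) and SCAP loss (right), with the other protein intact on the horizontal axis and knocked out on the vertical axis, bars of 1 SE and a dashed line of equal change. Chkb and Lpcat3 lie up and to the right in the HDAC3 panel, at 0.46 and 0.62 with SCAP intact and 0.81 and 0.68 without it, and Mfsd2a lies at -3.16 and -4.42 in the SCAP panel.

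Whether the changes of the single knockouts added up on the log2 scale was tested as an interaction. It draws on all 4 groups, which differ in floxed line, and of which only the GFP controls had no Cre. An effect of line or of Cre does not cancel and cannot be told apart from an interaction. None of the 9 genes passed, and 0% of all 12009 genes was called by edgeR. Chkb (0.35, unadjusted p = 0.0429) and Pcyt2 (-0.36, unadjusted p = 0.0158) were 2 of the 601 genes with an unadjusted p under 0.05, with adjusted p of 0.969 and 0.918. DESeq2 and voom each called 6 genes, none of them among the 9. For Lpcat3 the interaction was 0.06 (SE 0.18). For Mfsd2a it was -1.25 with an SE of 0.89.

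Genes whose levels ran most closely with a member over the 17 livers were ranked by Pearson's r of log2 CPM among 11353 expressed genes. Group differences, shared by many genes, enter these values, and they are given as description. Pcyt2 ran with Scd1, the stearoyl-CoA desaturase (r = 0.96), Sc5d, the sterol C5 desaturase (0.96), and Fads2, the delta-6 desaturase (0.96). Mfsd2a ran with Lipg, endothelial lipase (0.95), Pmvk, phosphomevalonate kinase (0.94), and Acat2, the cytosolic acetoacetyl-CoA thiolase (0.93). Lpcat3 ran with Cpn1, a carboxypeptidase N subunit (0.96), and the glutathione transferases Gstt2 and Gstt3 (0.95 each).

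Levels of the choline route genes ran with other sets. For Chkb the closest were Lrrc8d, a volume-regulated anion channel subunit (0.91), Pctp, the phosphatidylcholine transfer protein (0.90), and Uhrf1bp1 (0.90). For Pcyt1a they were Shmt2, the mitochondrial serine hydroxymethyltransferase (0.93), Decr2, a peroxisomal dienoyl-CoA reductase (0.92), and Rab43 (0.91). For Chka they were the importin Kpnb1 (0.91), the sialic acid synthase Nans (0.90) and the proteasome subunit Psmd8 (0.90).

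Of 48 other tested genes of phospholipid metabolism, 13 rose and 1 fell in HDAC3 LKO livers, 1 fell and none rose in SCAP LKO, and 9 rose and 2 fell in Double LKO. These are 14, 1 and 11 of 48 genes called, beside 13.9%, 1.19% and 13.9% of all tested genes, and the 1 gene in SCAP LKO is near that background. Their median log2 fold changes were 0.16, -0.06 and 0.12, and those of all tested genes -0.02, 0.01 and -0.01. These lists, like the 9 genes, were chosen with earlier results of these data known. In Double LKO against SCAP LKO 12 rose and 1 fell, beside 7.99% of all genes called. Against HDAC3 LKO 1 fell and none rose, which is near the 1.31% of all genes called. Without Double LKO library 4 the 12 became 7 and neither of the 2 genes that fell in Double LKO passed. The lone genes that fell in HDAC3 LKO (Pld1, a phospholipase D, named after its value was seen) and in Double LKO against HDAC3 LKO (Pnpla7, a lysophospholipase, likewise) each missed the threshold when any of several single libraries was left out. Counted against the controls of their own line only, 8 rose in HDAC3 LKO, and with voom 16 rose in Double LKO.

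Next to the CDP-choline route, Cept1, which transfers phosphocholine or phosphoethanolamine to diacylglycerol, rose by 0.56 upon HDAC3 loss (edgeR adjusted p = 0.000702) and 0.54 upon loss of both (adjusted p = 0.00162). The related gene Chpt1, the cholinephosphotransferase, differed by 0.33, 0.26 and 0.44 with loss of HDAC3, SCAP and both and did not pass. None of the 3 phosphatidylserine genes passed in any knockout. In the CDP-diacylglycerol branch, which leads to phosphatidylinositol and cardiolipin, 3 of 5 tested genes rose in HDAC3 LKO and 1 in Double LKO, beside 13.9% of all genes called in each. The 1 gene in Double LKO is near that background. Crls1, cardiolipin synthase, rose by 0.50 (adjusted p = 0.000328) and 0.59 (adjusted p = 0.000108), and Cds2, a CDP-diacylglycerol synthase, by 0.41 in HDAC3 LKO (adjusted p = 0.00188).

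Among the 6 other tested acyl remodelling genes, Lpgat1, a lysophospholipid acyltransferase, fell by 0.51 in SCAP LKO (edgeR adjusted p = 0.00339), and none passed in HDAC3 LKO or Double LKO. It was the 1 gene of these 6 called in SCAP LKO, beside 1.19% of all genes, and 13.9% were called in HDAC3 LKO and Double LKO. Mean levels of Lpgat1 were 249 CPM in controls, 175 with SCAP loss, 275 with HDAC3 loss and 267 with loss of both. With own-line controls the difference was -0.52 (edgeR adjusted p = 0.0612). Of 15 genes of phospholipases and turnover, 4 passed in HDAC3 LKO and 4 in Double LKO, beside 13.9% of all genes in each. Gde1, Pla2g12a and Pla2g6 rose in both. The HDAC3 LKO rise of Gde1 (0.31, edgeR adjusted p = 0.0254) did not pass with own-line controls (0.11, adjusted p = 0.562). Nor did it pass with a block for replicate number (0.099, adjusted p = 0.664), or when any of several single libraries was left out. Pld1 fell in HDAC3 LKO (-0.45, edgeR adjusted p = 0.0338) and did not pass in Double LKO (-0.41, adjusted p = 0.0693). Pnpla7 fell in Double LKO (-0.36, edgeR adjusted p = 0.0356) and did not pass in HDAC3 LKO (0.17, adjusted p = 0.293). Gde1 and Pla2g12a, like Pld1 and Pnpla7, were named after their values were seen. Pla2g6, the calcium-independent phospholipase A2 beta, rose by 1.20 upon HDAC3 loss (adjusted p = 1.68e-05) and 1.04 upon loss of both (adjusted p = 8.29e-05), from a control mean of 48.7 CPM.

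Of 8 tested genes of choline and phospholipid transport, 3 rose in HDAC3 LKO, and 3 rose and 1 fell in Double LKO. The share of all genes called was 13.9% in each. Pctp, which carries phosphatidylcholine between membranes, rose by 1.02 upon HDAC3 loss (edgeR adjusted p = 2.47e-06) and 0.73 upon loss of both (adjusted p = 0.000108). Abcb4, the canalicular flippase that exports phosphatidylcholine into bile, rose by 0.77 (adjusted p = 0.000206) and 0.99 (adjusted p = 2.71e-05). Of 8 tested genes of methyl donors and choline oxidation, 3 rose in HDAC3 LKO and 1 in Double LKO. In each comparison 13.9% of all genes were called, and the 1 gene in Double LKO is near that background. Chdh, choline dehydrogenase, rose by 0.69 upon HDAC3 loss (adjusted p = 0.000265) and 0.65 upon loss of both (adjusted p = 0.000884). Gnmt, the glycine methyltransferase that consumes S-adenosylmethionine, rose by 0.95 in HDAC3 LKO (adjusted p = 0.00248). The Double LKO rises of Cept1 and Chdh and the HDAC3 LKO rise of Gnmt did not pass with own-line controls (adjusted p = 0.105, 0.0727 and 0.104). No gene of the transport or methyl donor lists passed in SCAP LKO, where 1.19% of all genes were called.

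**Figure D5:**
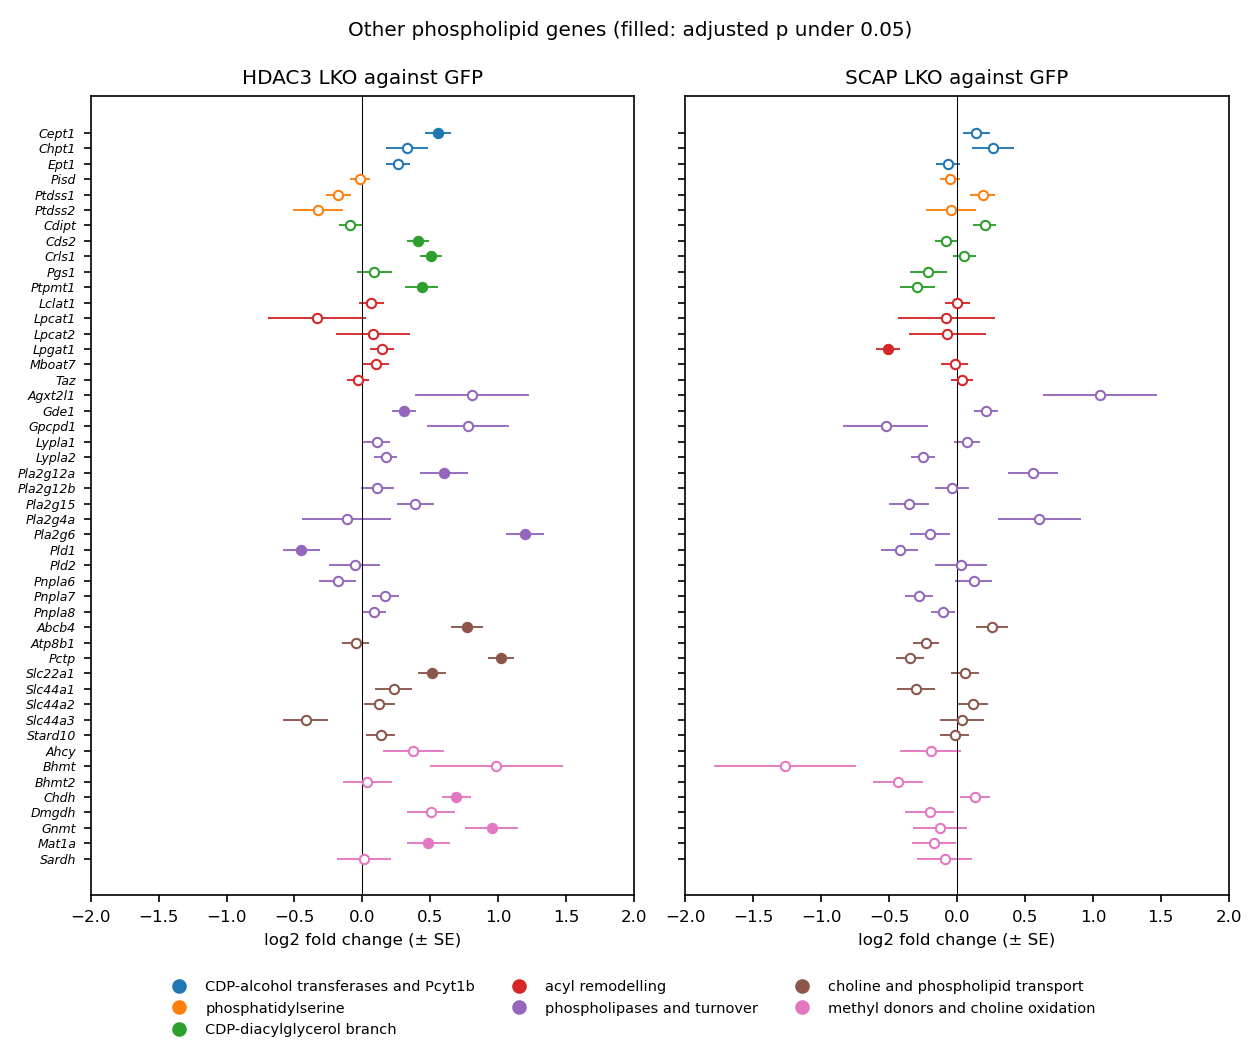
Log2 fold change against GFP controls, with bars of 1 SE, of 48 other phospholipid genes in HDAC3 LKO (left) and SCAP LKO (right), coloured by list and filled where the adjusted p was under 0.05. In HDAC3 LKO 13 filled points lie to the right and 1 to the left, and in SCAP LKO the 1 filled point is Lpgat1, at -0.51.

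The authors' deposited table gives log2 fold changes with the same signs for the genes called here. In the authors' deposited table Mfsd2a was at -3.20 in SCAP LKO (FDR 5.005e-11) and -3.88 in Double LKO (FDR 1.058e-07), and Pcyt2 at -0.76 (FDR 7.406e-09) and -0.82 (FDR 0.002957). For Lpcat3 the authors' deposited table has 0.60 in HDAC3 LKO (FDR 1.865e-05) and -0.65 in SCAP LKO (FDR 0.0002013). Chkb in Double LKO and Pcyt1a in HDAC3 LKO, called here, had FDR values of 0.1308 and 0.1942 in the authors' deposited table.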

How the data were processed

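Total RNA of 17 livers was sequenced from TruSeq libraries, per the labels' protocols. The deposited table holds raw read counts per RefSeq transcript, as its whole-number values show, and the submitters' processing notes name edgeR and mm9. For RNA reads the aligner, the counter and the use of strand are not given in the sources used. Log2 fold changes and the FDR (adjusted p-values) quoted from the authors are from their own edgeR comparison, per the file headers. Another 17 columns of per-sample values were not used.

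The transcript marked best was used for each gene (22869 of 28644 rows, with 80.4 to 82.0% of counts). Tests used edgeR 4.0.16 under R 4.3.3 (TMM, filterByExpr, quasi-likelihood F-test) in 1 fit of 4 groups, and in 1 of 6 groups for control lines and own-line comparisons, with Benjamini-Hochberg adjustment over 12009 genes. SE is the log2 change over the square root of F. CPM are TMM-scaled. DESeq2 1.42.0 and voom with quality weights (limma 3.58.1) were alternatives. The fit was tested on simulated counts. The 18 pairs of libraries within a floxed group differed beyond sampling noise (chi-square per degree of freedom 2.86 to 40.9). Some column numbers do not match the titles, and those columns were used by group only.

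The 9 genes and the lists were chosen with earlier results of these data known. Named besides them were Hdac3 and Scap, up to 2 called genes of each list with the lowest p per knockout and the highest expressed gene that did not pass, and the 3 genes most like each member called. Some of the genes the rule names are not described.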

Additional observations from a re-analysis of the deposited data

How the results depend on the processing

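The direction of every called change of the 9 genes was kept under RLE scaling, no low-count filter, DESeq2, voom, the transcript with most counts and leaving out each library. It was also kept with own-line controls, run for the 3 comparisons with GFP, and with the replicate block, run for HDAC3 LKO and SCAP LKO against GFP. Scaling by RLE moved the median of all genes by under 0.1 log2. Of the 9 genes, 2 were called in HDAC3 LKO and 2 in Double LKO against own-line controls (4 and 4 in the main comparison). Leaving out 1 library gave 3 to 4 with HDAC3 loss, 2 to 3 with SCAP loss and 4 to 4 with loss of both against GFP, 2 to 3 in Double LKO against either single knockout and 0 to 0 for the interaction and for the control lines. With loss of both the 4 were not always the same, as Chka dropped out and Pcyt1a came in without Double LKO library 2. Counts over all genes ran from 1086 (without HDAC3 LKO replicate 4) to 2084, 102 to 218 (without Double LKO library 2), 1211 to 1668, 112 to 187 (Double against HDAC3), 679 to 1077 (Double against SCAP), 0 to 2 (interaction) and 8 to 22 (control lines, added after the data were seen). Own-line controls gave 841, 89 and 715 genes. DESeq2 gave 228 in SCAP LKO, 240 in Double against HDAC3 LKO, 6 for the interaction and 50 for the control lines, with 1 of the 9 genes. Voom gave 234 in SCAP LKO, 2874 in Double LKO, 509 and 1967 in Double against HDAC3 LKO and SCAP LKO, and 6 for the interaction. Without the low-count filter 2 genes passed the interaction and 85 the control lines, with 1 of the 9. Same-numbered HDAC3 LKO and SCAP LKO livers did not deviate together (correlations 0.09, 0.01, 0.11 and -0.08). Correlations between livers of different number ran from -0.14 to 0.15. No pairing by number was seen between these groups, the other groups were not checked, and a weak pairing could go unseen. The replicate block on the numbered libraries called 822 genes and 2 of the 9 in HDAC3 LKO and 250 genes in SCAP LKO. The same libraries without the block, an alternative chosen after seeing the data, gave 1079 and 261. The causes of these shifts were not tested. The planned count of the 9 genes near ChIP peaks was not run, because no annotation of the peaks' build, mm9, was used here. Double LKO has 3 livers, and Mfsd2a there rests on few reads.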
